A study of Mus musculus with 20 samples.

Results

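Toll-like receptors are pattern-recognition receptors of the innate immune system, and 9 of their genes (Tlr1, Tlr2, Tlr4, Tlr5, Tlr6, Tlr7, Tlr8, Tlr9 and Tlr13) were followed through orthotopic pancreatic tumours of mice. The genes were taken by symbol from a count table of 46983 genes, and each of the 9 symbols matched 1 row. The tumours grew from KPC murine pancreatic cancer cells injected into the pancreas of IL33-/- or wild type (WT) C57BL/6 hosts, were untreated, and are labelled as taken at 2 weeks. Each group held 5 libraries: CD45+ leukocytes selected on magnetic beads from tumours of IL33-/- hosts (sorted IL33KO) and of WT hosts (sorted WT), and unsorted tumour of IL33-/- hosts (bulk IL33KO) and of WT hosts (bulk WT). All hosts received the tumour, so no tumour-free pancreas is among the samples used here, and only the host, not the injected line, differs in genotype. The age of the hosts is not given in the sources used here.

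Members of the family that sit on the cell surface (Tlr1, Tlr2, Tlr4, Tlr5 and Tlr6) bind lipids and proteins of microbes, and those of the endosome (Tlr7, Tlr8, Tlr9 and Tlr13) bind nucleic acids. After binding, the receptors recruit adaptor proteins such as Myd88, which leads through kinases and ubiquitin ligases to NF-kB and interferon regulatory factors and to transcription of inflammatory genes. Macrophages, dendritic cells, neutrophils and B cells are known for expressing them, each with its own set, and in pancreatic tumours signalling through several of them has been studied in leukocytes and in tumour cells alike.

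Gene counts summed to 51.3 to 81.0 M (mega) per library (median 59.5 M), at which 3 counts, the limit that a count of 0 allows, correspond to 0.0371 to 0.0585 CPM (counts per 1 M gene counts); this limit covers counting error only. The summed CPM of 10 pan-leukocyte markers was 8717 to 11070 in sorted IL33KO and 8511 to 11720 in sorted WT libraries, against 781 to 1578 in bulk IL33KO and 671 to 1535 in bulk WT libraries, so the sorted label held in all 10 libraries. The 8 tumour epithelium markers still summed to 1050 to 2802 CPM in sorted libraries, against 6598 to 9517 CPM in bulk libraries. Il33 was read at 14.2 to 25.3 CPM in sorted IL33KO, 5.71 to 20.7 CPM in sorted WT, 38.0 to 56.2 CPM in bulk IL33KO and 54.0 to 66.9 CPM in bulk WT libraries. These counts therefore do not check the host label, and "IL33KO" below means the libraries labelled so. Sorted IL33KO 3 stood apart with 16450 CPM of neutrophil markers and 48000 CPM of acinar enzyme genes, against 2468 to 7584 CPM and 756 to 8414 CPM in the other 9 sorted libraries. Sorted WT 3 had the highest level of its group for 8 of the 9 receptor genes, all but Tlr5.

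All 9 genes were read in all 20 libraries. Levels are compared between genes as CPM per kilobase of merged exon (CPM per kb). In sorted leukocytes Tlr2, which pairs with Tlr1 or Tlr6 to bind bacterial lipopeptides, was highest, with 43.8 ± 8.12 CPM per kb in sorted IL33KO and 59.7 ± 19.9 CPM per kb in sorted WT libraries (SD, n = 5 each). Tlr13, a mouse sensor of bacterial ribosomal RNA, followed with 28.0 ± 3.39 CPM per kb in sorted IL33KO and 27.7 ± 4.97 CPM per kb in sorted WT libraries. Tlr1 came next with 20.7 ± 2.06 CPM per kb in sorted IL33KO and 22.0 ± 2.04 CPM per kb in sorted WT libraries. The ranges of Tlr2 and Tlr13 overlapped in sorted IL33KO and those of Tlr13 and Tlr1 in sorted WT libraries. Below these lay Tlr9, Tlr8, Tlr4, Tlr7 and Tlr6, whose means ran from 7.92 to 12.9 CPM per kb in sorted IL33KO and from 8.76 to 11.3 CPM per kb in sorted WT libraries. Each of these 5 overlapped its neighbour in the order, so their order is not resolved beyond the spread of the libraries. Tlr5, the flagellin receptor, was the lowest of the 9, with 1.10 ± 0.349 CPM per kb in sorted IL33KO and 1.04 ± 0.177 CPM per kb in sorted WT libraries, and lay below its neighbour in all 10 libraries.

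The order in unsorted tumour was different at the top. Tlr4, which binds lipopolysaccharide together with Ly96 and Cd14, was highest by its mean, with 5.29 ± 0.747 CPM per kb in bulk IL33KO and 5.69 ± 1.45 CPM per kb in bulk WT libraries. Tlr2 followed with 4.89 ± 1.58 CPM per kb in bulk IL33KO and 4.19 ± 1.34 CPM per kb in bulk WT libraries. The Tlr4 level exceeded the Tlr2 level in 3 of 5 bulk IL33KO and 3 of 5 bulk WT libraries, so these neighbours overlapped. Tlr1 and Tlr13 had 2.76 to 3.33 CPM per kb on average in bulk groups, Tlr6, Tlr7, Tlr8 and Tlr9 had 0.927 to 1.31 CPM per kb, and Tlr5 had 0.275 ± 0.128 CPM per kb in bulk IL33KO and 0.189 ± 0.0801 CPM per kb in bulk WT libraries.

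**Figure D1:**
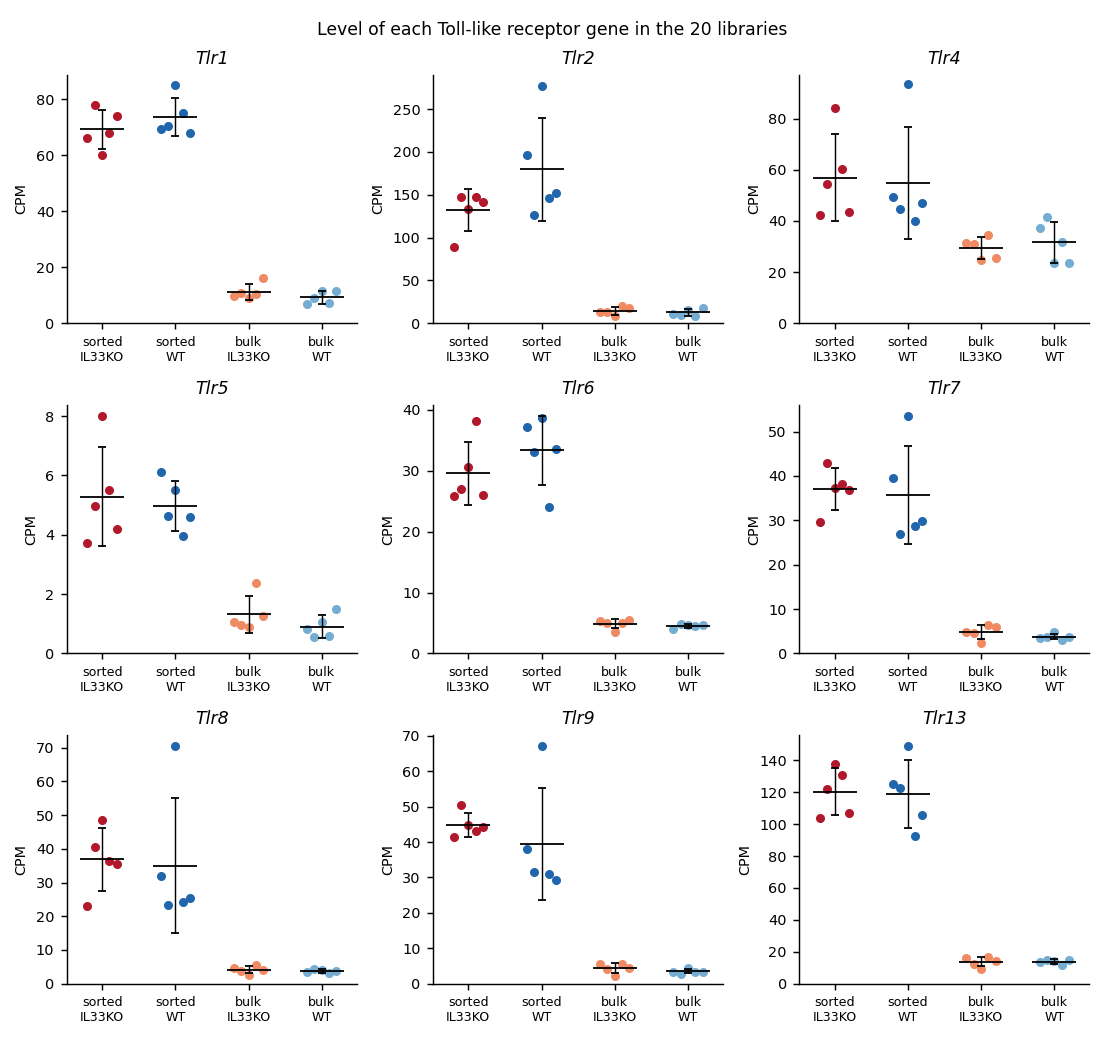
Level of the 9 genes (CPM, vertical axis, from 0) in each of 20 libraries (points), with the mean and SD of each group of 5 (lines). The sorted groups lie above the bulk groups for every gene, except that Tlr4 in sorted WT 4 (39.9 CPM) lies below bulk WT 2 (41.5 CPM), and sorted WT 3 is the highest point of its group for every gene but Tlr5.

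Whether the host's Il33 genotype went with a different receptor level was asked first in sorted leukocytes. None of the 9 genes passed the edgeR quasi-likelihood test (Benjamini-Hochberg adjusted p over 16731 genes, threshold 0.05). None had an unadjusted p under 0.05, against 2156 of the 16731 genes. DESeq2 and limma voom with sample weights also called 0 of the 9. Over all genes tested, edgeR called 2 of 16731 (0.012%), DESeq2 3.23% and limma voom 2.39%. The log2 fold changes of the 9 ran from -0.43 to 0.21 with a median of 0.07, against a median of 0.02 over all genes tested, and adjusted p-values from edgeR ran from 0.427 to 0.941.

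The lowest of these 9 log2 fold changes belonged to Tlr2. Tlr2 had 89.3, 147, 133, 148 and 142 CPM in sorted IL33KO 1 to 5, against 196, 127, 277, 146 and 152 CPM in sorted WT 1 to 5. All 5 sorted IL33KO libraries lay below the sorted WT median, but the groups overlapped. The log2 fold change was -0.43 ± 0.21 (SE; 95% confidence interval -0.89 to 0.03), with an edgeR adjusted p of 0.427 and an exact two-sided permutation p of 0.159, where 5 against 5 allows no p below 0.00794. Without sorted WT 3 the log2 fold change was -0.24 (edgeR adjusted p = 0.488). Macrophage markers moved with it: all 12 had a negative log2 fold change, and their summed level was 11580 to 17820 CPM in sorted IL33KO, against 19390 to 22090 CPM in sorted WT libraries, with none of the 12 at 0. The macrophage score (mean log2 CPM of the 12 markers) was at least 8.38 in sorted IL33KO and 9.06 to 9.34 in sorted WT libraries, with every sorted IL33KO library below every sorted WT library, so macrophage transcripts and host cannot be told apart for Tlr2.

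Tlr9, the receptor for unmethylated CpG DNA, had the highest of the 9 log2 fold changes. Tlr9 had 41.4, 50.5, 44.8, 43.1 and 44.3 CPM in sorted IL33KO 1 to 5, against 37.9, 31.4, 67.0, 31.1 and 29.3 CPM in sorted WT 1 to 5. All 5 sorted IL33KO libraries lay above 4 of the 5 sorted WT libraries, and the remaining one, sorted WT 3, lay above all others. The log2 fold change was 0.21 ± 0.20 (95% confidence interval -0.23 to 0.65; edgeR adjusted p = 0.702), and without sorted WT 3 it was 0.47 (edgeR adjusted p = 0.0799). B cell markers, whose cells are known to express Tlr9, had a positive log2 fold change for 10 of 10. Their summed level was 211 to 1303 CPM in sorted IL33KO and 285 to 815 CPM in sorted WT libraries. The lowest sums were those of sorted IL33KO 4 and 5 (211 and 249 CPM), whose Tlr9 lay above 4 of the 5 sorted WT libraries. The part of B cell markers in the result was not tested.

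For the other 7 genes the groups were interleaved. Tlr8, a relative of Tlr7 on the X chromosome, had 23.1, 40.6, 48.6, 36.5 and 35.4 CPM in sorted IL33KO 1 to 5, against 31.9, 23.2, 70.4, 24.2 and 25.3 CPM in sorted WT 1 to 5. Sorted WT 3 was again the highest library, and 4 of 5 sorted IL33KO libraries lay above the sorted WT median. The log2 fold change of Tlr8 was 0.10 ± 0.31, and 0.49 without sorted WT 3, with no call by edgeR either way (adjusted p = 0.925 and 0.225). Tlr4 had 42.2, 54.3, 84.3, 60.4 and 43.6 CPM in sorted IL33KO 1 to 5, against 49.3, 44.8, 93.7, 39.9 and 46.9 CPM in sorted WT 1 to 5, so 1 library in each group stood high. Its log2 fold change was 0.08 ± 0.25 and turned to -0.12 without sorted IL33KO 3. Tlr7, the endosomal receptor for single-stranded RNA, had 29.7 to 43.0 CPM in sorted IL33KO and 27.0 to 53.5 CPM in sorted WT libraries. Tlr13 had 104 to 138 CPM in sorted IL33KO and 92.5 to 149 CPM in sorted WT libraries. Tlr1 had 60.2 to 77.9 CPM in sorted IL33KO and 68.0 to 84.9 CPM in sorted WT libraries, and its interval was the narrowest of the 9, at -0.25 to 0.11 on the log2 scale. Tlr6 had 25.9 to 38.1 CPM in sorted IL33KO and 24.1 to 38.7 CPM in sorted WT libraries, and Tlr5 had 3.74 to 8.01 CPM in sorted IL33KO and 3.95 to 6.11 CPM in sorted WT libraries. The highest Tlr5 value was that of sorted IL33KO 3, the library rich in neutrophil and acinar transcripts, and without it the log2 fold change of 0.10 became -0.10. Over all genes tested, 3.7% had groups that did not overlap in either direction; among the 9 receptors there were 0.

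In unsorted tumour the host comparison again gave no call. EdgeR called 0 of the 9 genes (0 at an unadjusted p under 0.05) and 0 of 17258 genes, a background of 0%, while 1098 genes had an unadjusted p under 0.05. DESeq2 called 0 of the 9, and limma voom with sample weights called Tlr1 (log2 fold change 0.48, adjusted p = 0.0378); over all genes DESeq2 called 0.269% and limma voom 3371 of 17258, which is 19.5%. The edgeR log2 fold changes ran from -0.13 to 0.51 with a median of 0.19, against 0.01 over all genes, and 7 of the 9 were above 0. Here a change in the number of cells of a type and a change in RNA per cell cannot be told apart. All 10 pan-leukocyte markers also had a positive log2 fold change, with a median of 0.25. With their score as a covariate, Tlr2 had a log2 fold change of -0.02, against 0.19 without it. With that covariate the other surface receptors had 0.08 (Tlr1), 0.03 (Tlr4), 0.35 (Tlr5) and 0.04 (Tlr6). The endosomal receptors had 0.17 (Tlr7), 0.09 (Tlr8), 0.19 (Tlr9) and -0.09 (Tlr13), and edgeR called none of the 9. The part of leukocyte content in these differences was not tested.

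Tlr5 had the highest log2 fold change in unsorted tumour, at 0.51 ± 0.36 (95% confidence interval -0.27 to 1.30; edgeR adjusted p = 0.724; exact two-sided permutation p = 0.183). It had 1.05, 0.970, 0.904, 2.38 and 1.28 CPM in bulk IL33KO 1 to 5, against 0.822, 0.552, 1.06, 0.596 and 1.49 CPM in bulk WT 1 to 5. Bulk IL33KO 4 was the highest, and all 5 bulk IL33KO libraries lay above the bulk WT median, but the groups overlapped. Tlr1 had 9.58, 10.9, 8.85, 10.3 and 16.1 CPM in bulk IL33KO 1 to 5, against 7.02, 8.92, 11.7, 7.09 and 11.4 CPM in bulk WT 1 to 5, a log2 fold change of 0.25 ± 0.21. The groups overlapped, with bulk WT 2, 3 and 5 inside the bulk IL33KO range and bulk IL33KO 5 the highest of the 10. Tlr13 was the closest to no difference, at -0.02 ± 0.15 (95% confidence interval -0.35 to 0.30). No receptor had groups that did not overlap, against 0.672% of all genes.

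**Figure D2:**
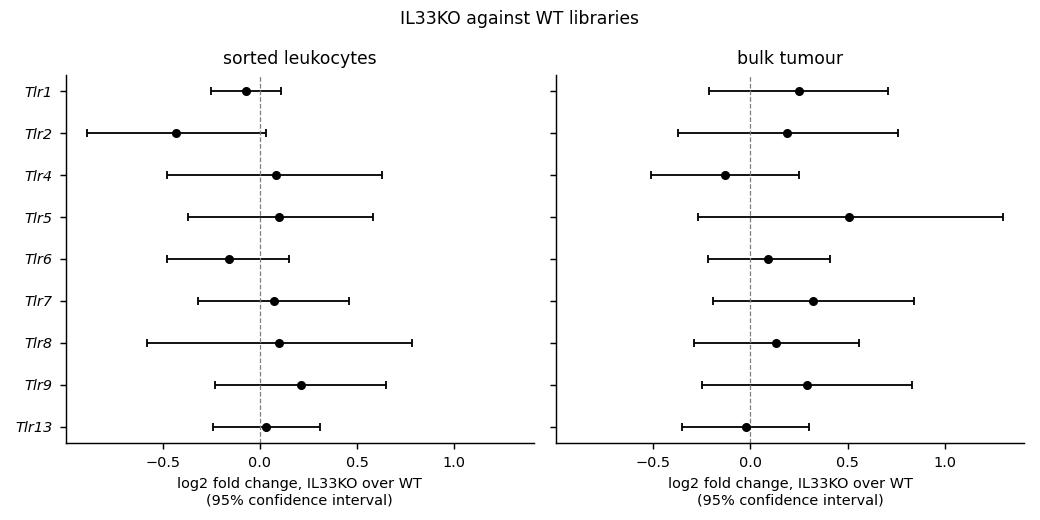
Log2 fold change of the 9 genes, IL33KO over WT (points), with 95% confidence intervals, in sorted leukocytes (left) and bulk tumour (right). Each interval contains 0, and the widest are those of Tlr8 in sorted leukocytes (-0.58 to 0.78) and Tlr5 in bulk tumour (-0.27 to 1.30).

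The make-up of the family was then described as each gene's share of the summed CPM per kb of the 9. In sorted leukocytes the endosomal receptors Tlr7, Tlr8, Tlr9 and Tlr13 made up 41.9 ± 1.66% in IL33KO and 36.0 ± 1.80% in WT libraries (SD, n = 5 each). The IL33KO libraries ran from 40.0 to 43.6% and the WT libraries from 34.1 to 38.4%, so the groups did not overlap. This measure was chosen after its values were seen and is given with no test. Tlr2 carried much of it: its share was 25.9 to 33.2% in sorted IL33KO and 32.0 to 39.6% in sorted WT libraries. With Tlr2 left out of the sum, the endosomal share was 58.6 to 61.1% in sorted IL33KO and 54.5 to 61.7% in sorted WT libraries, and the groups overlapped. The Tlr9 share was 8.04 to 10.4% in sorted IL33KO and 6.16 to 8.29% in sorted WT libraries. In unsorted tumour the endosomal share was 30.8 ± 3.02% in IL33KO and 30.6 ± 1.14% in WT libraries.

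**Figure D3:**
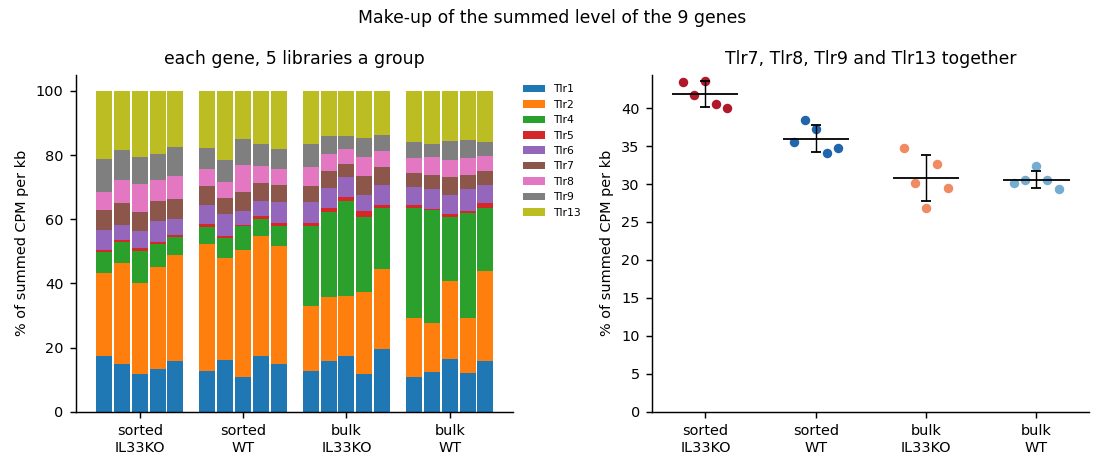
Left, share of each gene in the summed CPM per kb of the 9 genes (stacked bars, 1 per library). Right, share of Tlr7, Tlr8, Tlr9 and Tlr13 together (points, libraries; lines, mean and SD), which lies at 40.0 to 43.6% in sorted IL33KO and 34.1 to 38.4% in sorted WT libraries.

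The comparison of sorted leukocytes with unsorted tumour sets each receptor's level in the CD45+ fraction beside that in the whole tumour. Only the sorted libraries went through bead selection, so handling and cell fraction cannot be told apart. Acinar enzyme genes were also higher in sorted libraries, with median sums of 3153 CPM in IL33KO and 3383 CPM in WT hosts. In bulk libraries these medians were 33.09 CPM in IL33KO and 42.29 CPM in WT hosts. In both hosts all 9 genes were higher in sorted leukocytes by edgeR, with adjusted p-values up to 0.00114 in IL33KO hosts and up to 0.00443 in WT hosts. Of 18145 genes tested, 31.3% were called higher in IL33KO hosts and 33.7% in WT hosts. The median log2 fold change of the 9 was 2.96 in IL33KO hosts and 3.12 in WT hosts, against 0.02 and 0 over all genes. In IL33KO hosts the sorted and bulk libraries did not overlap for any of the 9, and in WT hosts for any but Tlr4; of all genes, 23.7% in IL33KO hosts and 26.1% in WT hosts were higher with no overlap. The labels do not say which sorted and bulk libraries share a tumour.

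Among the 9, the nucleic acid receptors Tlr7, Tlr8, Tlr9 and Tlr13 had the narrower range of log2 fold changes. Tlr9 was 10.5-fold higher in IL33KO hosts (44.8 ± 3.44 CPM in sorted and 4.36 ± 1.47 CPM in bulk libraries) and 11.4-fold higher in WT hosts (39.3 ± 15.8 CPM in sorted and 3.48 ± 0.577 CPM in bulk libraries). Tlr13 was 8.88-fold higher in IL33KO hosts and 8.72-fold higher in WT hosts. Tlr8 was 8.96-fold and Tlr7 7.80-fold higher in IL33KO hosts, and 9.40-fold and 9.51-fold higher in WT hosts. All 4 thus lay between 7.80-fold and 11.4-fold.

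The surface receptors were more spread. Tlr2 was 9.12-fold higher in sorted than bulk libraries of IL33KO hosts (95% confidence interval 6.16 to 13.5) and 14.3-fold higher in WT hosts (9.55 to 21.5). Tlr1 was 6.31-fold higher in IL33KO hosts and 8.05-fold in WT hosts, and Tlr6 was 6.17-fold higher in IL33KO hosts and 7.50-fold in WT hosts. Tlr5 was 4.09-fold higher in IL33KO hosts and 5.52-fold in WT hosts. Tlr4 had the lowest fold change of the 9 in both hosts.

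Tlr4 had 42.2 to 84.3 CPM in sorted and 24.7 to 34.5 CPM in bulk libraries of IL33KO hosts, a 1.97-fold higher level (95% confidence interval 1.41 to 2.76; edgeR adjusted p = 0.00114). In WT hosts it had 39.9 to 93.7 CPM in sorted and 23.6 to 41.5 CPM in bulk libraries, a 1.75-fold higher level (1.25 to 2.45; edgeR adjusted p = 0.00443). Sorted WT 4, at 39.9 CPM, lay below bulk WT 2, at 41.5 CPM. The upper bounds of both Tlr4 intervals lay below the lower bounds of the other members' intervals in the same hosts, except that of Tlr5 in IL33KO hosts, whose lower bound was 2.61-fold. A relative outside the 9, Tlr3, a receptor for double-stranded RNA picked after its values were seen, was lower in sorted leukocytes, with 24.9 ± 3.51 CPM in sorted and 53.4 ± 11.3 CPM in bulk libraries of IL33KO hosts (log2 fold change -1.08, edgeR adjusted p = 1.07e-05). In WT hosts it had 22.5 ± 3.53 CPM in sorted and 55.5 ± 11.5 CPM in bulk libraries (log2 fold change -1.29, edgeR adjusted p = 9.46e-07).

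Scaling each library to its pan-leukocyte transcripts, rather than to all genes, asks whether a receptor was enriched as strongly as the leukocyte markers. On that scale 91.6% of all genes in IL33KO hosts and 91.4% in WT hosts were called lower in sorted leukocytes, so a lower call is the usual outcome. Tlr4 was lower, with a log2 fold change of -2.27 ± 0.33 in IL33KO hosts and -2.97 ± 0.34 in WT hosts (edgeR adjusted p = 2.67e-07 and 3.23e-09). Tlr5, Tlr6 and Tlr1 were also lower in both hosts, at -1.17, -0.57 and -0.49 in IL33KO hosts and -1.02, -0.75 and -0.54 in WT hosts. Tlr13 was lower in WT hosts (-0.52, edgeR adjusted p = 0.0311) and was not called in IL33KO hosts (-0.04, edgeR adjusted p = 0.85). Tlr2, Tlr7, Tlr8 and Tlr9 were called in neither host, with log2 fold changes of -0.18 to 0.22 in IL33KO hosts and -0.46 to 0.30 in WT hosts.

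**Figure D4:**
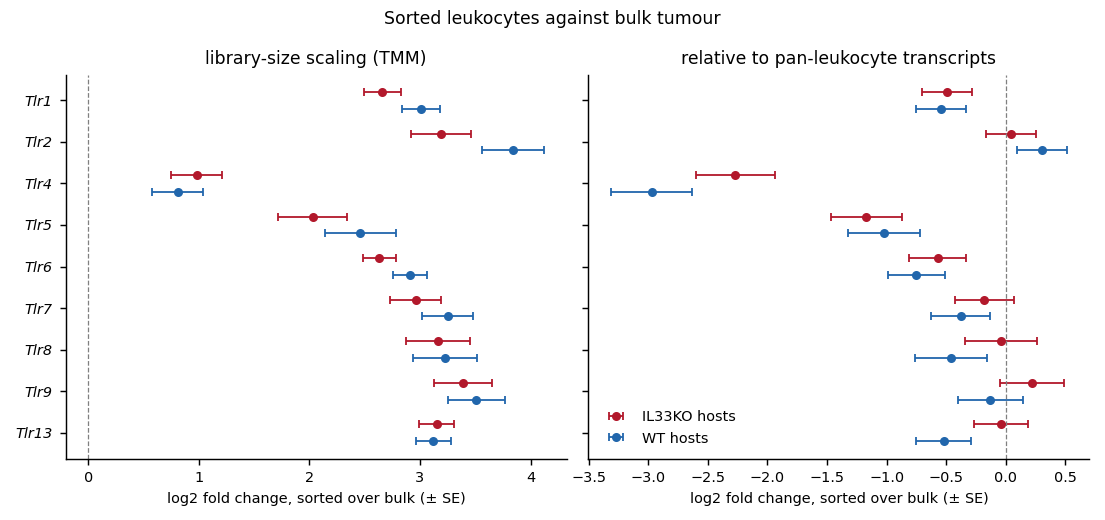
Log2 fold change of the 9 genes, sorted over bulk (points, ± SE), in IL33KO and WT hosts, after library-size scaling (left) and relative to pan-leukocyte transcripts (right). On the left Tlr4 lies at 0.98 and 0.81, below the other 8 genes in both hosts; on the right it lies at -2.27 and -2.97.

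The sorted over bulk difference was compared between hosts with an interaction term. EdgeR called 0 of the 9 (0 at an unadjusted p under 0.05) and 0 of 18145 genes, a background of 0%, with 2028 genes at an unadjusted p under 0.05. DESeq2 called 0 of the 9, and limma voom with sample weights called Tlr1 (-0.51, adjusted p = 0.0275), where over all genes DESeq2 called 0.0071% and limma voom 18.8%. The largest edgeR difference was that of Tlr2, at -0.65 ± 0.35 on the log2 scale (95% confidence interval -1.39 to 0.09; adjusted p = 0.467), and the highest was that of Tlr4, at 0.17 ± 0.32.

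Bulk tumours differed in leukocyte content, and a model with host and a pan-leukocyte score (the mean log2 CPM of the 10 markers) gave each receptor's change per unit of score over the 10 bulk libraries. This comparison was added after the data were seen. Tlr2 rose by 0.83 ± 0.16 log2 units per unit of score (edgeR adjusted p = 0.0127) and Tlr1 by 0.63 ± 0.14 (edgeR adjusted p = 0.023). Of 17258 genes, 6.4% were called higher and 2.65% lower with the score. Tlr2 had 13.7, 12.6, 8.51, 20.6 and 18.2 CPM in bulk IL33KO 1 to 5, where the pan-leukocyte sum was 1072, 1055, 781, 1188 and 1578 CPM. It had 10.8, 9.77, 15.4, 8.95 and 18.3 CPM in bulk WT 1 to 5, where that sum was 682, 671, 1207, 680 and 1535 CPM. The libraries richest in leukocyte transcripts were thus among those highest in Tlr2 in both hosts. Bulk WT 5 and bulk IL33KO 3 also held 10030 and 1866 CPM of acinar enzyme genes. The group medians were 42.29 CPM in bulk WT and 33.09 CPM in bulk IL33KO libraries. The part of acinar transcripts in the slopes was not tested. Without bulk WT 5 neither call held (Tlr2 0.87, adjusted p = 0.0901; Tlr1 0.74, adjusted p = 0.0683), and the Tlr1 call was also lost without bulk IL33KO 5 or bulk WT 1, 3 or 4.

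Tlr4 was the only one of the 9 with a negative slope. It had 31.4, 30.9, 24.7, 34.5 and 25.5 CPM in bulk IL33KO 1 to 5, against 37.4, 41.5, 23.6, 31.9 and 23.6 CPM in bulk WT 1 to 5. Bulk WT 3 and 5, with the highest leukocyte sums of their group, had the lowest Tlr4, whereas bulk IL33KO 3 was lowest in both Tlr4 and leukocyte sum in its group. The slope was -0.45 ± 0.15 (edgeR adjusted p = 0.0801), so it was not called by edgeR, while DESeq2 (-0.48, adjusted p = 0.0291; 10.9% of all genes called lower) and limma voom with sample weights (-0.58, adjusted p = 0.00654; 19.6% of all genes called lower) called it, as did edgeR without bulk IL33KO 3 (-0.58, adjusted p = 0.00699). Tlr5 had a slope of 0.87 ± 0.33 (edgeR adjusted p = 0.107), and the other 5 genes had slopes of 0.15 to 0.47 with no call. In sorted leukocytes, slopes on a neutrophil score called 0 of the 9 by edgeR, against 0.203% of all genes. Tlr5 alone of the 9 had an unadjusted p under 0.05 (0.44, edgeR adjusted p = 0.481), as had 1425 of 16731 genes. Without sorted IL33KO 3 the Tlr5 slope was 0.22 (edgeR adjusted p = 0.848). Slopes on a macrophage score also called 0 of the 9 by edgeR, against 0% of all genes. They were fitted with host, although this score did not overlap between hosts. With edgeR, 3 of the 9 (Tlr2, Tlr7 and Tlr8) had an unadjusted p under 0.05, as had 1102 of 16731 genes. DESeq2 called Tlr2 (1.67, adjusted p = 0.0426) and 0.666% of all genes. The edgeR slope of Tlr2 was 1.61 ± 0.39 and ran from 1.31 to 3.09 with 1 library left out. Sorted IL33KO 1 had the lowest macrophage score, 8.38 against 8.87 to 9.34 in the other sorted libraries, and the lowest Tlr2, 89.3 CPM.

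**Figure D5:**
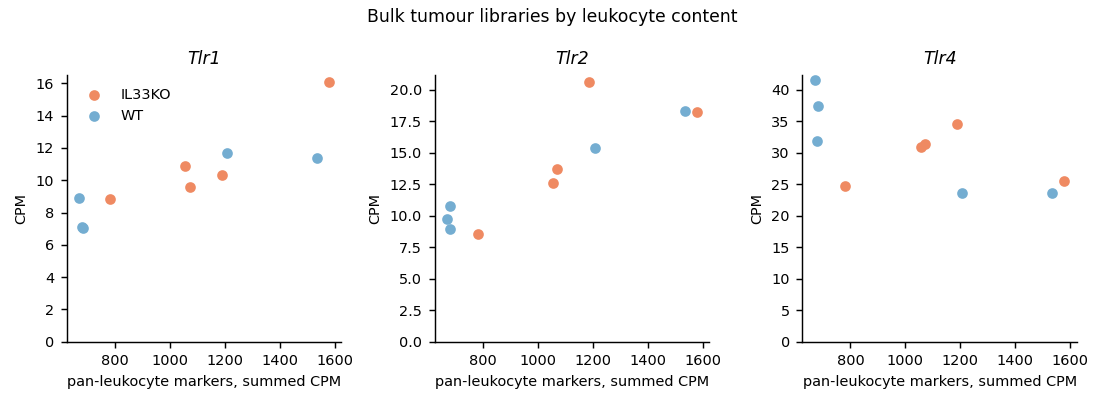
Level of Tlr1, Tlr2 and Tlr4 (CPM, vertical axis, from 0) against the summed CPM of 10 pan-leukocyte markers (horizontal axis) in the 10 bulk libraries (points, coloured by host). Tlr2 reaches 18.2 and 18.3 CPM in the libraries with 1578 and 1535 CPM of markers, and Tlr4 is 23.6 CPM in the WT libraries with 1207 and 1535 CPM.

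Promoter sequence was examined because all 9 genes were called higher in sorted than in bulk libraries, Tlr4 with the lowest fold change. Of all genes, 31.3% in IL33KO hosts and 33.7% in WT hosts were called higher too. A RefSeq table of promoters (GRCm38.p6, 250 bases before to 50 after each start) held 9 entries for 7 of the 9 genes, with 2 starts each for Tlr1 and Tlr6; Tlr4 and Tlr7 are named only. The searched motifs, on both strands, were GAGGAAGT (the core of a PU.1 site, the myeloid and B cell factor), GGGANTTTC (part of an NF-kB site), GAAANNGAA (part of an interferon regulatory factor site) and TATAAA (a core promoter element, the box named after these letters); matches of different motifs overlapped in none of the 9 entries, and the last matched on both strands in overlap in Tlr8. Of 32851 promoters in the table, 3.2% held the first, 1.11% the second, 8.56% the third and 13.6% the fourth. Of the 5 entries that hold at least 1 match, 4 are shown with matches in capitals, each from 250 bases before to 30 after the start, in the direction of transcription, because they cover the steep (Tlr9, Tlr8) and the middle (Tlr1, Tlr6) of the sorted over bulk fold changes.
Tlr1, chr5:64933529-64933808, minus strand: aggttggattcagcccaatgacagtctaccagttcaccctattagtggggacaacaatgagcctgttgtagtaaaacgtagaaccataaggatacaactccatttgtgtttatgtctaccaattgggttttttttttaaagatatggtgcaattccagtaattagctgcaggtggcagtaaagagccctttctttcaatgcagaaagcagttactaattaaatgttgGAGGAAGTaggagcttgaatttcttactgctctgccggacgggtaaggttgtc
Tlr6, chr5:64959137-64959416, minus strand: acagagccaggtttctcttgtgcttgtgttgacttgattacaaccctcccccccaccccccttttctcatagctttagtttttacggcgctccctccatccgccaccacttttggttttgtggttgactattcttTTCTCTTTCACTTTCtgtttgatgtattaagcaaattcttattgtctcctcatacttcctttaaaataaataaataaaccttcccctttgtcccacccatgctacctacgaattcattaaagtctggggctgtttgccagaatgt
Tlr8, chrX:167264300-167264579, minus strand: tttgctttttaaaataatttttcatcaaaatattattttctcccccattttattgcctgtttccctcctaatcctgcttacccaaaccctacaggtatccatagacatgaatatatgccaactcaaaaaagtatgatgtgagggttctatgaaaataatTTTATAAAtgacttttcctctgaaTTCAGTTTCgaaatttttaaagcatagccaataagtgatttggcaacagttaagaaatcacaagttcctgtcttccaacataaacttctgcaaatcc
Tlr9, chr9:106222348-106222627, plus strand: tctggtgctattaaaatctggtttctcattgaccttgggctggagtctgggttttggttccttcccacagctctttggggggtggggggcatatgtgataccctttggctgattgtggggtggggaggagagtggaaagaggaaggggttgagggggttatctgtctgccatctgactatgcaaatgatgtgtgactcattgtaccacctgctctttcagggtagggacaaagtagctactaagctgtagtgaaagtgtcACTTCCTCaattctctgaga
GAGGAAGT stood in this Tlr1 start and, on the other strand, in Tlr9. GAAANNGAA stood in this Tlr6 start, as overlapping copies on the other strand, and in Tlr8. The second Tlr6 start held 3 copies of the fourth motif, and the other Tlr1 start, Tlr2, Tlr5 and Tlr13 held none of the 4 motifs. A match is a description of letters in the window and not a measured site.

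Tlr7, Tlr8 and Tlr13 are on the X chromosome (Tlr13 at chrX:106143204-106160493, Tlr8 at chrX:167242696-167264329 and Tlr7 at chrX:167304929-167330558, GRCm38), and Tlr1 and Tlr6 are close neighbours on chromosome 5 (chr5:64924679-64933563 and chr5:64952031-64960097). Tlr2 is at chr3:83836272-83841767, Tlr4 at chr4:66827584-66930284, Tlr5 at chr1:182954788-182976044 and Tlr9 at chr9:106222598-106226883. No other annotated gene overlapped any of the 9 (GENCODE M21). Xist, the RNA of the inactive X chromosome, was read at 76.9 to 450 CPM in all 20 libraries, and 4 Y-linked genes had at most 9 counts in any library.

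Likeness of pattern was measured as the root mean square difference of mean-centred log2 CPM over the 20 libraries, against the 13052 named genes that averaged 1 CPM or more. The 3 most alike genes were Gng2 (0.14), Kynu (0.149) and Fam105a (0.171) for Tlr1. They were Plek (0.224), Fgl2 (0.24) and Slc11a1 (0.251) for Tlr2. For Tlr4 they were Hiatl1 (0.154), Capza1 (0.161) and Atp6v1a (0.162), and for Tlr5 Pde8a (0.237), Gas7 (0.271) and Sulf2 (0.29). For Tlr6 they were Vav3 (0.174), Lyn (0.175) and Sema4d (0.181). Pik3cg, a leukocyte phosphoinositide kinase, was the most alike gene for Tlr7 (0.161), Tlr8 (0.252) and Tlr13 (0.156). Rassf4 (0.161) and Nckap1l (0.202) followed for Tlr7, Cysltr1 (0.254) and Rassf4 (0.285) for Tlr8, and Cd33 (0.167) and Nckap1l (0.17) for Tlr13. For Tlr9 they were Cd180 (0.23), a relative of the receptors on B cells and myeloid cells, Itga4 (0.266) and Tm6sf1 (0.269). Among the 9 receptors, Tlr7 was closest to Tlr13 (0.228) and to Tlr8 (0.229). The sorted and bulk libraries set most of each pattern, and the points share libraries.

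The rest of the pathway was followed in 9 lists with 73 genes. In the host comparison edgeR called 0 of 72 tested in sorted leukocytes and 0 of 70 tested in unsorted tumour; DESeq2 called Cd14 (-0.50, adjusted p = 0.0123) and Unc93b1 (-0.43, adjusted p = 0.0135) in sorted leukocytes, where DESeq2 called 3.23% of all genes, and none in unsorted tumour. Against bulk, sorted leukocytes had 52 genes called higher and 8 lower of 72 in IL33KO hosts, and 51 higher and 9 lower in WT hosts. Of all genes, 31.3% were called higher and 31.7% lower in IL33KO hosts, and 33.7% higher and 34.3% lower in WT hosts, against which the counts of each list are to be read. The list medians that follow stand beside medians of 0.02 in sorted leukocytes and 0.01 in unsorted tumour over all genes in the host comparison, and of 0.02 in IL33KO hosts and 0 in WT hosts for sorted over bulk.

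Among co-receptors and accessory proteins, which present ligands to the surface receptors, 5 of 6 were higher and 1 lower in sorted leukocytes in both hosts (list medians 2.27 in IL33KO and 2.42 in WT hosts). Cd180 was highest, at log2 fold changes of 3.27 in IL33KO hosts and 3.40 in WT hosts, and Lbp, which carries lipopolysaccharide, was lowest, at -1.29 and -2.17. In the host comparison of sorted leukocytes, Cd14 averaged 722 ± 115 CPM in IL33KO and 1020 ± 111 CPM in WT libraries (log2 fold change -0.49, edgeR adjusted p = 0.176). Ly86, the partner of Cd180, had -0.28 (edgeR adjusted p = 0.286). In unsorted tumour the smallest p-values were those of Lbp (-0.54) and Ly86 (0.25), with edgeR adjusted p of 0.724 and 0.76.

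Among chaperones and endosomal proteins, 8 of 9 were higher and 1 lower in sorted leukocytes in both hosts. Unc93b1, which carries the endosomal receptors out of the endoplasmic reticulum, had the highest log2 fold change, at 2.84 in IL33KO hosts and 3.65 in WT hosts, and Cnpy4 the lowest, at -0.65 and -0.42. In sorted leukocytes of IL33KO against WT hosts all 9 had a log2 fold change below 0, with a list median of -0.26. The 12 macrophage markers, all below 0 with a median of -0.27, moved with them, and their part was not tested. Unc93b1 averaged 700 ± 97.5 CPM in sorted IL33KO and 943 ± 79.5 CPM in sorted WT libraries (log2 fold change -0.42 ± 0.10, edgeR adjusted p = 0.173). Cnpy3, a folding factor of several of the receptors, averaged 106 ± 6.86 CPM in sorted IL33KO and 127 ± 9.34 CPM in sorted WT libraries (-0.25 ± 0.08, edgeR adjusted p = 0.238). In unsorted tumour Hsp90b1 had -0.22 and Slc15a4 had 0.12, with edgeR adjusted p of 0.724 and 0.729.

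For sorted over bulk, the list medians were 1.37 in IL33KO and 1.05 in WT hosts for adaptors, 0.34 and 0.23 for kinases and ubiquitin ligases, and 0.93 and 0.80 for transcription factors. Of 6 adaptors, 5 were higher in sorted leukocytes of IL33KO hosts, and 3 were higher and 1 lower in WT hosts. Ticam2 was highest (2.63 in IL33KO and 3.14 in WT hosts) and Tirap, the bridge to Myd88, lowest (-0.08 in IL33KO hosts, edgeR adjusted p = 0.768, and -0.62 in WT hosts, edgeR adjusted p = 0.022). Of 15 kinases and ubiquitin ligases, 9 were higher and 1 lower in IL33KO hosts, and 8 were higher and 2 lower in WT hosts, with Peli1 highest (1.58 and 1.68) and Tab1 lowest (-0.74 and -0.70). Of 7 transcription factors, 6 were higher in IL33KO hosts and 7 in WT hosts, with Irf5 highest (2.77 and 3.37) and Rela lowest (-0.03 in IL33KO hosts, edgeR adjusted p = 0.829, and 0.27 in WT hosts, edgeR adjusted p = 0.0283). Between hosts in sorted leukocytes, Myd88 averaged 189 ± 15.0 CPM in IL33KO and 216 ± 16.6 CPM in WT libraries (-0.19, edgeR adjusted p = 0.387). The other smallest p-values there were those of Tirap (0.27), Tab3 (0.31), Ikbkg (0.13), Irf3 (-0.25) and Rela (-0.19), with edgeR adjusted p from 0.219 to 0.482. In unsorted tumour they were those of Pik3ap1 (-0.66), Ticam1 (-0.36), Tab2 (-0.20), Irak4 (-0.17), Nfkb1 (-0.15) and Irf5 (0.45), each with an edgeR adjusted p of 0.724.

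Inhibitors of the pathway were higher in sorted leukocytes for 6 of 8 and lower for 1 in both hosts. Tnfaip3 had the highest log2 fold change in IL33KO hosts (2.99) and Nfkbia in WT hosts (3.34), and Sigirr the lowest in both (-1.19 and -1.14). Of 11 tested target genes, 9 were higher in sorted leukocytes of IL33KO hosts and 10 of WT hosts, none was lower, and the list medians were 3.80 in IL33KO hosts and 4.50 in WT hosts. Cxcl2, a neutrophil-attracting chemokine, averaged 739 ± 293 CPM in sorted and 5.69 ± 2.10 CPM in bulk libraries of IL33KO hosts. It averaged 838 ± 240 CPM in sorted and 6.49 ± 4.39 CPM in bulk libraries of WT hosts. For these target genes, too, handling and cell fraction cannot be told apart. Cxcl10 had the lowest log2 fold change of the targets, at 0.24 in IL33KO hosts (edgeR adjusted p = 0.571) and 0.99 in WT hosts (edgeR adjusted p = 0.0177).

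Between hosts in sorted leukocytes, 9 of the 11 target genes and 6 of the 8 inhibitors had log2 fold changes below 0, with list medians of -0.42 and -0.06 and no call by edgeR. All 12 macrophage markers were also below 0 there (median -0.27), and their part was not tested. Il1b averaged 2340 ± 649 CPM in IL33KO and 3490 ± 810 CPM in WT libraries (-0.57, edgeR adjusted p = 0.309), and Tnf averaged 67.4 ± 31.2 CPM in IL33KO and 113 ± 21.1 CPM in WT libraries (-0.73, edgeR adjusted p = 0.297). Nfkbia had -0.57 and Socs1 -0.48, with edgeR adjusted p of 0.274 and 0.359. In unsorted tumour Il12b had 0.80, Tnf -0.30, Sigirr 0.12 and Socs1 0.46, with edgeR adjusted p from 0.724 to 0.759.

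Endogenous ligands had the lowest list median for sorted over bulk (-0.12 in IL33KO and -0.02 in WT hosts). Of 8 genes, 2 were higher and 4 lower in IL33KO hosts, and 2 were higher and 3 lower in WT hosts, shares not far from those of all genes. S100a9, a neutrophil protein, was highest (5.00 and 4.37), and the matrix protein gene Tnc was lowest (-3.80 and -2.99). Between hosts in sorted leukocytes S100a8 had 0.97 ± 0.73 and Vcan 0.67 ± 0.33 (edgeR adjusted p = 0.623 and 0.438); the high neutrophil marker sum of sorted IL33KO 3 is given above. In unsorted tumour Bgn averaged 347 ± 73.5 CPM in IL33KO and 216 ± 64.8 CPM in WT libraries (0.66 ± 0.21) and Vcan 22.2 ± 8.05 CPM in IL33KO and 12.4 ± 5.31 CPM in WT libraries (0.81 ± 0.34), each with an edgeR adjusted p of 0.724. All 8 fibroblast markers moved with these matrix genes, with a median log2 fold change of 0.96 and a summed level of 1293 to 4907 CPM in bulk IL33KO and 979 to 2201 CPM in bulk WT libraries, none at 0; their part was not tested. Of the other receptor genes, Tlr11 and Tlr12 were higher in sorted leukocytes in both hosts (2.67 and 2.39 in IL33KO hosts, 2.85 and 2.80 in WT hosts) and were not called between hosts. Tlr11 had 0.18 and Tlr12 -0.22 in sorted leukocytes, and 0.32 and 0.16 in unsorted tumour, with edgeR adjusted p from 0.664 to 0.84.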

How the data were processed

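RNA was measured by poly(A) RNA-seq in 20 libraries, grouped by the sample titles. The authors deposited raw HTSeq counts per gene, which are not normalized, and a table of scaled signal, which per its header holds counts over DESeq size factors; this deposited signal table served only as an alternative. The submitters' processing notes name Picard, HTSeq, DESeq and the mm10 build; the aligner and the strand setting used in counting are not stated in the sources used here. The summary lines of the count table held 26.1 to 40.5% of reads per library and were left out.

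Counts were fitted in edgeR 4.0.16 (R 4.3.3) with filterByExpr, TMM and robust quasi-likelihood tests, two-sided, with Benjamini-Hochberg adjustment over all genes at a threshold of 0.05. Host comparisons used 10 libraries each, and sorted against bulk and the interaction used all 20. CPM were computed on TMM-scaled libraries, and log2 values with 2 prior counts. The fits were tested on simulated data with known changes. In the sorted host comparison, 16.4% of 1.5-fold, 58.2% of 2-fold and 84.8% of 4-fold changes were recovered. For sorted against bulk in IL33KO hosts these were 14.9%, 47.8% and 74.2%. In each case 67 genes were changed 1.5-fold, 67 genes 2-fold and 66 genes 4-fold, of 16731 and 18145 genes. In the measured libraries of IL33KO hosts, 31.3% of genes were called higher and 31.7% lower for sorted against bulk. Whether the recovery given for sorted against bulk holds with that many calls was not tested. Most of the 1.5-fold changes made here were missed. The absence of a call does not exclude a change of that size. Alternatives were relative log expression, no filter, DESeq2 1.42.0, limma 3.58.1 voom, no robust estimation, a replicate block, leaving out libraries, covariates and leukocyte scaling. No replicate pair agreed within sampling noise (lowest chi-square per gene 18.3 over 40 pairs). The labels name 5 hosts per genotype but do not tie libraries to mice, so p-values measure the spread between libraries, which may be partly technical. Exact permutation tests used log2 CPM.

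The members and lists were chosen with earlier results of these data known. The text names the 9 receptors; from each list, the 2 smallest p-values in each host comparison and the highest and lowest log2 fold change for sorted against bulk; and the 3 genes most alike each receptor. Coordinates are from GENCODE M21 (GRCm38). Per-length levels divide CPM by merged exon length. Multiply aligned reads are left out of the counts, so similar stretches shared by Tlr1 and Tlr6 may be undercounted.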

Additional observations from a re-analysis of the deposited data

Results flagged for a closer look

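Within the 36 groups of 5 libraries (9 genes in 4 groups), 4 held a library whose distance to its nearest neighbour on the log2 scale took up more than 0.71 of the group's range. Chance flags about 1 in 20 such groups. Tlr4 in sorted WT 3 was 93.7 CPM, against 39.9 to 49.3 CPM in the other 4 sorted WT libraries. Tlr8 in the same library was 70.4 CPM, against 23.2 to 31.9 CPM. Tlr2 in sorted IL33KO 1 was 89.3 CPM, against 133 to 148 CPM in the other 4 sorted IL33KO libraries. Tlr6 in bulk IL33KO 3 was 3.57 CPM, against 4.93 to 5.47 CPM in the other 4 bulk IL33KO libraries, and that library also had the lowest pan-leukocyte sum of its group, 781 CPM.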

How the results depend on the processing

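The number of receptors called was the same as given above under relative log expression, no filter, DESeq2, no robust estimation and each library left out for the 2 host comparisons (0 and 0), for sorted against bulk (9 and 9) and for the interaction (0). Limma voom with sample weights called 1 in unsorted tumour and 1 in the interaction. Leukocyte scaling called 4 in IL33KO hosts and 5 in WT hosts, all lower; the log2 fold changes it turned negative were, in IL33KO hosts, -0.49 (Tlr1), -2.27 (Tlr4), -1.17 (Tlr5), -0.57 (Tlr6), -0.18 (Tlr7), -0.04 (Tlr8) and -0.04 (Tlr13), and in WT hosts -0.54 (Tlr1), -2.97 (Tlr4), -1.02 (Tlr5), -0.75 (Tlr6), -0.38 (Tlr7), -0.46 (Tlr8), -0.13 (Tlr9) and -0.52 (Tlr13).

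In sorted leukocytes, uncalled host differences changed sign for Tlr1 (0.03), Tlr2 (0.17) and Tlr6 (0.06) with the macrophage covariate, whose values do not overlap between hosts, and for Tlr1 (0.01) and Tlr5 (-0.07) without sorted WT 3 and sorted IL33KO 3. In unsorted tumour they did so for Tlr2 (-0.02) and Tlr4 (0.03) with the leukocyte covariate and for Tlr13 (0.11) with voom. With 1 library left out, the sorted log2 fold changes ran from -0.12 to 0.33 (Tlr4), -0.10 to 0.21 (Tlr5), -0.02 to 0.24 (Tlr7), -0.03 to 0.49 (Tlr8) and -0.04 to 0.11 (Tlr13), that of Tlr13 in unsorted tumour from -0.09 to 0.08, and the Tlr4 interaction from -0.02 to 0.45. The slopes on leukocyte content gave 0 to 3 calls with 1 library left out, against 2 with all. The slopes on the macrophage score gave 1 call with DESeq2, and the pathway lists 2 in sorted leukocytes. With the longest transcript as length, 3 receptors in sorted IL33KO and 4 in sorted WT libraries changed place in the order. Without Tlr2, the endosomal share differed by 2.71 percentage points (IL33KO minus WT), against 5.88. The causes were not tested. Without sorted WT 3 and sorted IL33KO 3 together, 0, 9, 9 and 0 receptors were called in sorted leukocytes between hosts, in the sorted against bulk comparisons and in the interaction.

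Replicate numbers did not clearly pair the samples: 9 of 20 same-numbered pairs correlated above 0.1 (-0.258 to 0.585), and 6 libraries were closest to their own number. These pairs include IL33KO with WT libraries, which cannot share a mouse. The pairs of sorted with bulk libraries of the same host genotype ran from -0.258 to 0.3. Shared tumours, under these or other numbers, are not excluded by this check. With a replicate block, 0 and 0 receptors were called between hosts, 9 and 9 for sorted against bulk, and 0 in the interaction.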
